A study of Mus musculus with 2 samples.

Results

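Renin-low pericytes and smooth muscle cells of the newborn mouse kidney were chosen by UMI counts (distinct captured transcripts) of 6 genes in each cell. A member had at least 2 UMIs each of Rgs5 and Notch3, at least 1 of Pdgfrb, fewer than 20 UMIs of Ren1 per 10000, and 0 UMIs of both Pecam1 and Ptprc. The rule found 243 cells in the Flcn KO library and 158 in the Flcn WT library, or 401 of 9227 cells that passed the filters. The KO library came from Six2Cre; Flcn flox/flox kidneys and the WT library from Six2Cre; Flcn flox/+ kidneys, both at postnatal day 0, so both carried Cre and at least 1 floxed allele. Six2-Cre acts in nephron progenitors, and mural cells descend from another lineage, the Foxd1-positive stroma. The cells described here are therefore neighbours of the targeted epithelium, and whether Cre acted in any of them was not tested. The labels give neither the number of animals nor that of kidneys behind a library, and they call the organ embryonic.

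Pericytes and smooth muscle cells are together called mural cells because they wrap the vessel wall. Smooth muscle cells of arterioles contract through an actin and myosin apparatus built from Acta2, Myh11, Tagln and Myl9, while pericytes lie on capillaries and carry the potassium channel of Kcnj8 and Abcc9. Endothelial PDGF recruits both through the receptor Pdgfrb, and the Notch receptor Notch3 maintains them. In the kidney a few arteriolar mural cells make renin, the enzyme that starts the angiotensin cascade, and mesangial cells hold the glomerular capillaries together. Folliculin, the product of Flcn, works at the lysosome with FNIP1 and FNIP2 and keeps the transcription factors TFEB and TFE3 in check.

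Sequencing gave 149679281 UMIs over 5991 barcodes in the KO library and 147390790 over 5572 in the WT library, of which 5040 and 4187 barcodes passed. Members had a median of 16473 UMIs in the KO library (range 4056 to 178286) and 18634.5 in the WT library (range 5038 to 97365). Members over 50000 UMIs numbered 17 in the KO library and 9 in the WT library, and held 24.7% and 19.03% of the members' UMIs. In all, 5 cell barcodes occurred in both libraries, and 1 of them was a KO member. With 1 library per genotype no difference between the genotypes could be tested. All intervals are 95% intervals for counting error alone and cover neither animals nor library preparation.

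The mural label was checked against genes the rule did not use. Levels are UMIs summed over the members scaled to counts per 1000000 nuclear-encoded UMIs of the same cells (CPM). Cspg4, the NG2 proteoglycan of pericytes, stood at 118 CPM in KO members and 129 CPM in WT members, against 1.35 and 2.12 CPM in endothelial cells of the same libraries. These endothelial cells were chosen by Pecam1 and Cdh5 UMIs and without Pdgfrb or Ptprc UMIs. They and the members were thus split on genes of the rule, so a gap in mural markers is in part set by the choice. Kcnj8 reached 226 CPM in KO members and 189 CPM in WT members, and its partner Abcc9 reached 409 and 339 CPM. Other listed markers were scarce. In no tertile of the contractile score, defined below, did the pericyte marker Vtn exceed 6 UMIs in KO or 7 in WT members. The smooth muscle marker Actg2 had at most 38 UMIs in a KO tertile and 36 in a WT tertile, and Cnn1 at most 58 and 7. Smooth muscle actin Acta2 stood at 691 CPM in KO members and 1058 CPM in WT members. In stromal cells positive for Pdgfra and Col1a1 it stood at 519 CPM in KO and 1220 CPM in WT, so Acta2 does not set members apart from stroma. Acta2 was detected in 84.0% of KO members and 91.1% of WT members, compared with 10.2% and 7.35% in endothelium, whose median depth was higher (27507 and 25797 UMIs). Smooth muscle myosin Myh11 had at least 1 UMI in 28.0% of KO members and 25.9% of WT members, compared with 3.47% and 1.6% in endothelium. Acta2 was thus detected in most members and Myh11 in a minority. Gata3, listed as mesangial, had a UMI in 77 KO and 59 WT members, against 68 and 41 for Myh11. The mesangial integrin Itga8 was detected in 89.6% of KO and 76.3% of WT members with Gata3. Among members without Gata3 it was detected in 70.5% and 66.7%.

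**Figure D1:**
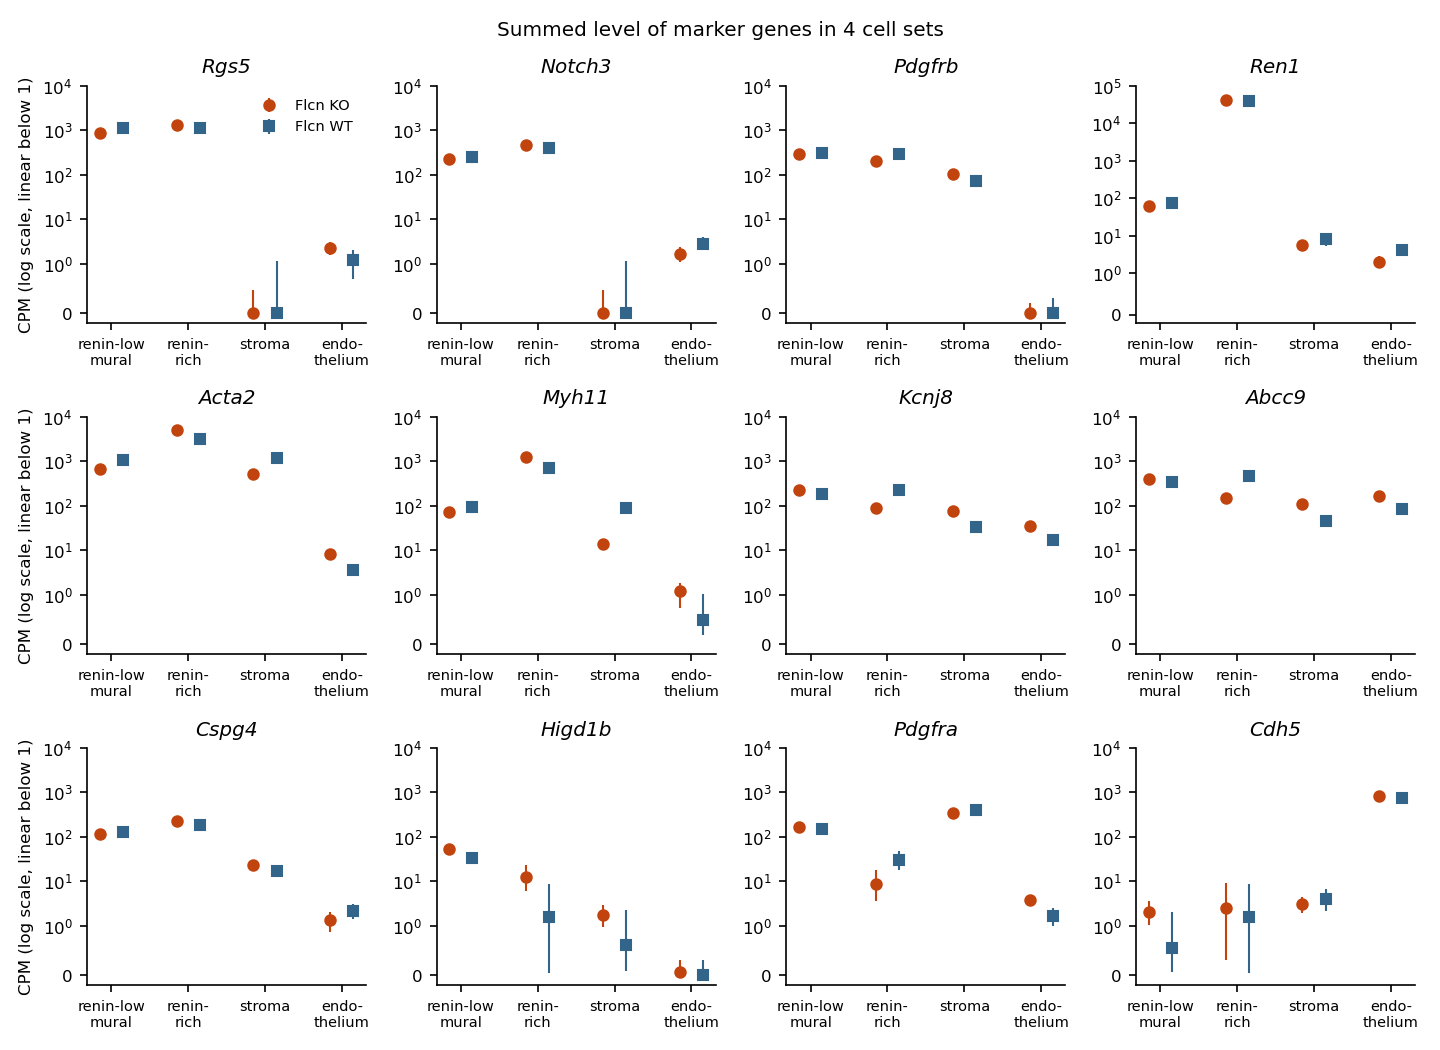
Summed level (CPM, log scale that is linear below 1) of 12 genes in renin-low mural cells, renin-rich cells, Pdgfra and Col1a1 stroma and endothelium, with circles for Flcn KO, squares for Flcn WT and bars for the counting interval. Rgs5, Notch3, Pdgfrb and Ren1 helped to choose the cells, and Acta2 and Myh11 were higher in renin-rich than in renin-low cells in both libraries.

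The mural label does not cover everything these cells held. Pdgfra, a receptor of interstitial fibroblasts, was detected in 55.1% of KO members and 58.9% of WT members, compared with 3.69% and 4.47% in endothelium. The stromal transcription factor Tcf21 was detected in 71.2% of KO members and 66.5% of WT members, compared with 8.89% and 5.11% in endothelium. Col1a1, a fibrillar collagen, stood at 1034 CPM in KO and 1244 CPM in WT members, close to the 1280 and 1282 CPM of the stroma, which was itself chosen by Pdgfra and Col1a1. The 6 stromal markers together summed to 1892 CPM in KO and 2116 CPM in WT members, against 36.8 and 11.7 CPM in endothelium. Defining endothelial markers were near 0, with Cdh5 at 2.07 CPM in KO and 0.556 CPM in WT members and Tie1 at 0.188 and 0.556 CPM. The sum of the 8 endothelial markers, 200 CPM in KO and 130 CPM in WT members, was mostly Emcn, which also stood at 183 and 103 CPM in the stroma. The 8 immune markers summed to 25.8 CPM in KO and 22.2 CPM in WT members, and C1qa stood at 0.376 and 0.278 CPM. The 12 nephron markers summed to 194 CPM in KO and 393 CPM in WT members, with Nphs1 at 0.188 and 0.834 CPM. Over 5 UMIs per 10000 of other types' markers were carried by 51 KO members (20.99%) and 21 WT members (13.3%).

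The thresholds of the rule cut through a continuum. Exactly 2 Notch3 UMIs were carried by 83 KO and 62 WT members, while 185 KO and 139 WT cells met every other condition with 1 Notch3 UMI. For Rgs5, 24 KO and 10 WT members had exactly 2 UMIs, and 24 and 15 cells stood just outside with 1. For Pdgfrb, 36 KO and 13 WT members had 1 UMI and 23 and 19 cells had none. Between 10 and 20 Ren1 UMIs per 10000 were carried by 11 KO and 3 WT members. Ren1 was detected in 19.8% of KO members and 21.5% of WT members, compared with 7.59% and 14.7% in endothelium. A single WT member held 39.0% of the WT members' Ren1 UMIs.

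Members made up 4.82% of KO cells (4.25% to 5.45%, exact Clopper-Pearson interval) and 3.77% of WT cells (3.22% to 4.40%), a ratio of 1.28 (1.04 to 1.57). Renin-rich cells, with at least 20 Ren1 UMIs per 10000, made up 0.833% of KO and 0.836% of WT cells. Endothelial cells made up 9.15% of KO and 7.48% of WT cells. Stromal cells positive for Pdgfra and Col1a1 made up 10.5% of KO and 4.90% of WT cells. Shares of 1 library add up to a whole, so a smaller share of other cells raises them, and how cells were recovered during dissociation was not tested.

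Members ranged widely in their levels. Rgs5, whose low end is set by the rule and the depth of the cell, ranged between 0.173 and 58.5 UMIs per 10000 in KO members with a median of 7.31, and between 0.270 and 69.6 in WT members with a median of 9.54. Acta2 ranged between 0 and 280 in KO members with a median of 3.01, and between 0 and 95.9 in WT members with a median of 5.49. Tagln, an actin-binding protein of smooth muscle, had a median of 0 in KO members and 1.001 in WT members, and its highest members held 183 and 71.3. Kcnj8 had a median of 2.07 UMIs per 10000 in KO members and 1.77 in WT members, with highest values of 17.0 and 10.9. The libraries overlapped for each of these genes, the medians of Acta2 and Tagln were higher in WT, and the highest single cells of Acta2, Tagln and Kcnj8 were in KO.

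**Figure D2:**
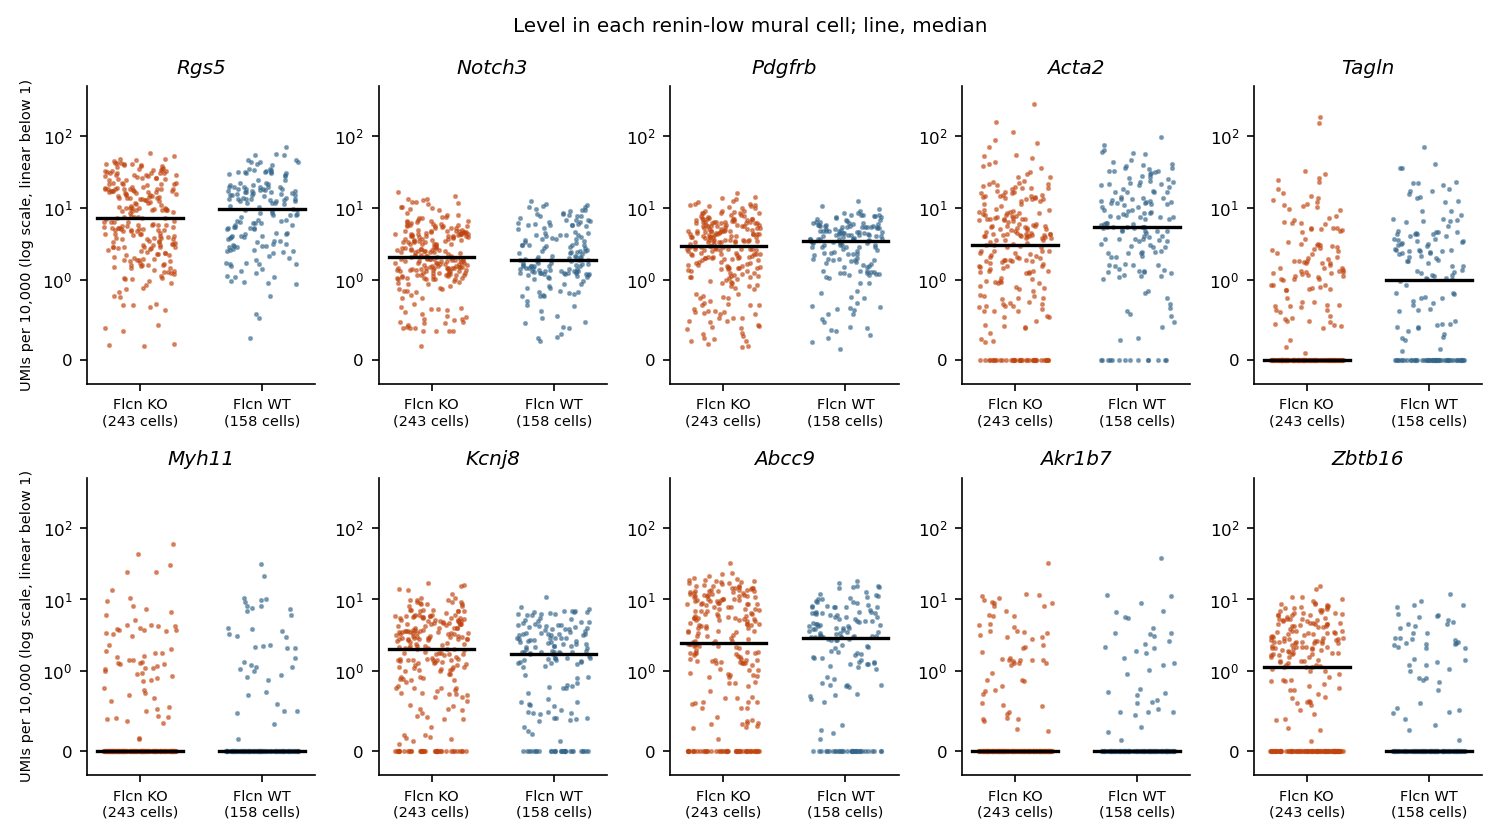
UMIs per 10000 of 10 genes in each member (log scale that is linear below 1), with 243 Flcn KO cells on the left and 158 Flcn WT cells on the right of each panel and a line at the median. The median of Acta2 is 3.01 in KO and 5.49 in WT, and that of Zbtb16 is 1.15 in KO and 0 in WT.

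The summed level of Acta2, Tagln, Myh11, Cnn1 and Myl9 per 10000 UMIs was used as a contractile score, and all members were cut into tertiles at 3.98 and 13.7. The highest tertile held 28.8% of KO members (23.2% to 34.9%) and 40.5% of WT members (32.8% to 48.6%). The lowest tertile held 39.5% of KO members (33.3% to 46.0%) and 24.1% of WT members (17.6% to 31.5%). The tertiles are ranges of a continuous score and not cell types, and 22 KO and 22 WT members lay within 10% of a cut. Median depth was 19403, 16435 and 14271.5 UMIs in the lowest, middle and highest KO tertiles, and 20235, 21074 and 16965 UMIs in the WT tertiles.

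Of the 19 contractile genes outside the score, 14 were higher in the highest than in the lowest tertile with intervals above 1 in both libraries, against 4.1% of the 16351 genes with at least 10 UMIs that neither the score nor the rule used. Their median ratio was 1.94 in KO and 2.91 in WT, against 0.90 and 0.91 over all these genes. Vcl was nearly flat, at 1.13 in KO (0.999 to 1.28) and 1.03 in WT (0.90 to 1.18), as was Smtn in KO at 1.10 (0.82 to 1.45). Des was at 1.14 in KO (0.87 to 1.498) and 2.94 in WT. Prkg1, the cGMP-dependent kinase that relaxes smooth muscle, stood at 1223, 1827 and 2982 CPM from the lowest to the highest KO tertile, and at 833, 1751 and 3726 CPM in the WT tertiles. Myocd, the coactivator that drives smooth muscle genes, was 8.94-fold higher in the highest than in the lowest KO tertile and 3.65-fold higher in the WT tertiles, with 22.8% of its WT UMIs in 1 cell. The L-type calcium channel Cacna1c was 2.24-fold and 2.66-fold higher, and the calcium-activated chloride channel Ano1 2.53-fold and 3.23-fold higher. Of 21 pericyte genes, 13 had intervals above 1 in both libraries and 1 had intervals below 1 in both. Their sum was lower in the highest KO tertile than in the middle one, at 5450 and 5674 CPM. Ndufa4l2 was 2.79-fold and 4.43-fold higher and Mcam 3.41-fold and 3.94-fold higher in the highest tertile in KO and WT. Abcc9 was at 0.98 in KO (0.87 to 1.10) and 1.80 in WT, Kcnj8 at 1.30 and 2.73, and Postn at 1.02 and 1.28.

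Other genes went against the score or were flat along it. The aminopeptidase Anpep was lower in the highest than in the lowest tertile, at 0.17 times in KO and 0.32 times in WT, but 1 cell held 49.7% of its KO and 53.9% of its WT UMIs. Pdgfra was lower as well, at 0.70 times in KO and 0.41 times in WT. The mesangial integrin Itga8 stood at 305 CPM in the highest and 419 CPM in the lowest KO tertile, and at 289 and 352 CPM in the WT tertiles. The topoisomerase Top2a of dividing cells stood at 149 CPM in the highest and 373 CPM in the lowest KO tertile, and at 272 and 458 CPM in the WT tertiles.

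**Figure D3:**
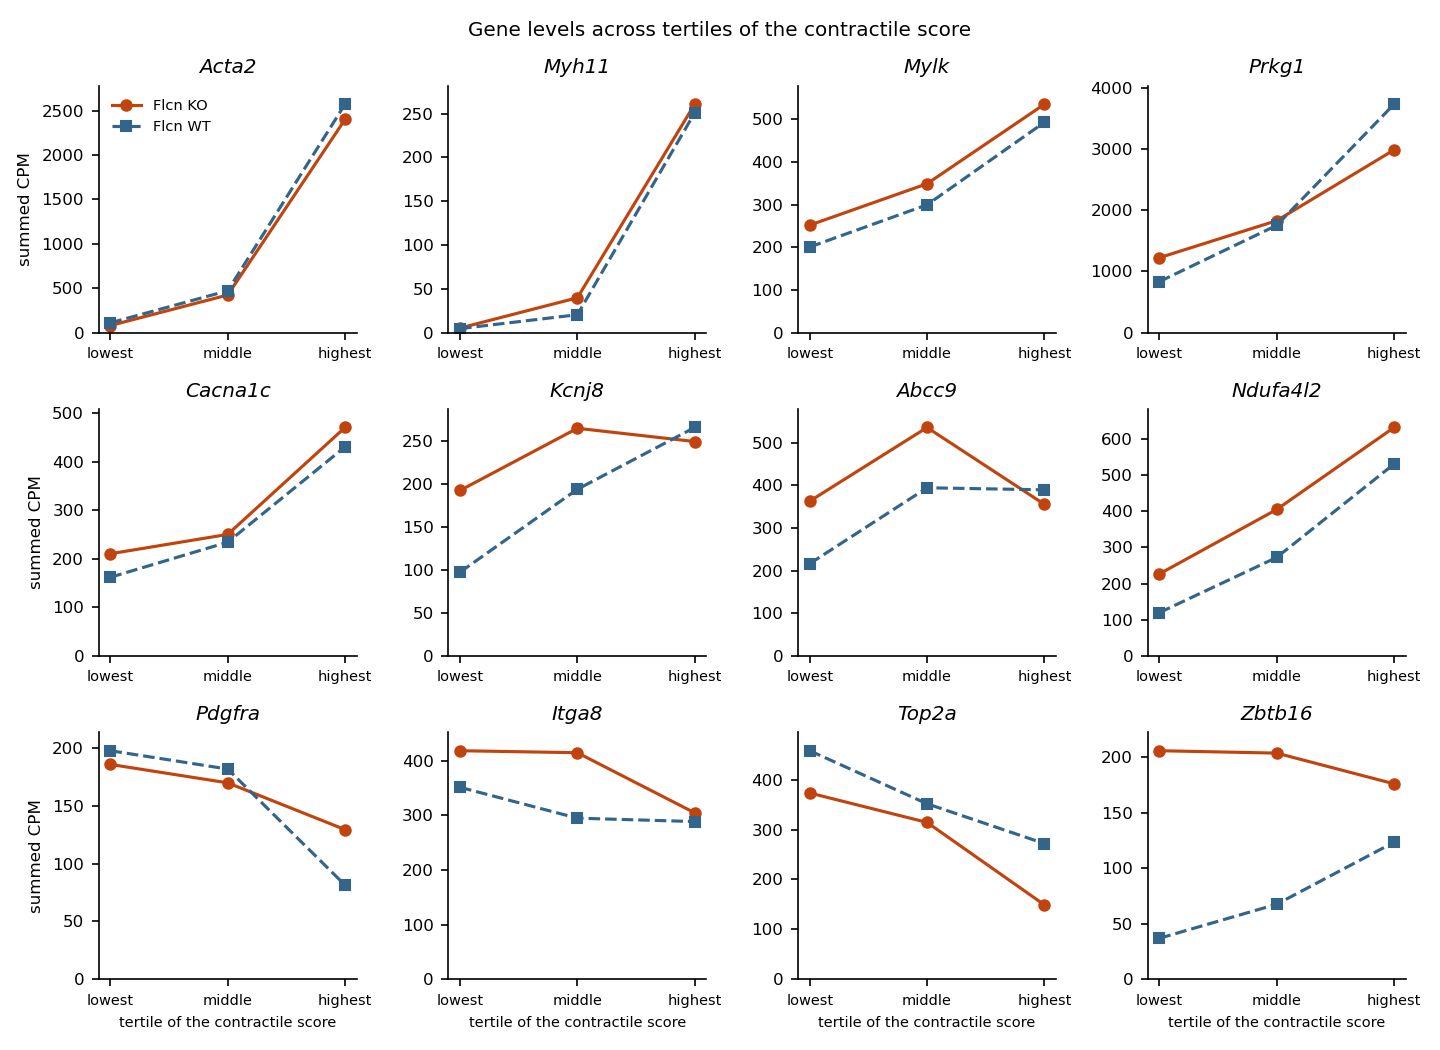
Summed CPM of 12 genes in the lowest, middle and highest tertile of the contractile score, with circles and solid lines for Flcn KO and squares and dashed lines for Flcn WT. Mylk, Prkg1, Cacna1c and Ndufa4l2, none of them in the score, are highest in the highest tertile of both libraries, and Zbtb16 is higher in KO in every tertile.

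Between genotypes, 8135 genes had at least 50 UMIs in the members and 20 CPM in at least 1 library. The median log2 ratio of KO over WT over these genes was 0.01. At least 1.5-fold higher in KO members were 245 genes (3.01%), and at least 1.5-fold lower were 144 (1.77%). With the stricter marker minimum (at least 3 UMIs of Notch3 and Rgs5 and 2 of Pdgfrb) the counts were 460 and 288. Single cells carried many of these differences. In 111 of the 245 higher genes, 1 KO cell held over 10% of the gene's KO UMIs, and in 85 of the 144 lower genes 1 WT cell held over 10% of the WT UMIs. For 15 of the higher and 26 of the lower genes, 1 cell held over 50%.

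The 24 genes that the ranking by counting interval put first were mostly concentrated in single cells. Of the 12 lowest in KO members, several are genes of tubule epithelium. The sodium, potassium and chloride cotransporter Slc12a1 of the loop of Henle had 37 UMIs in KO members and 475 in WT members, of which 74.5% lay in 1 WT cell. The duct keratin Krt19 had 4 UMIs in KO and 74 in WT members, 97.3% of them in 1 cell, and Gsdmc3 had 2 and 96 UMIs, 97.9% of them in 1 cell. The other 9 were Abca13, Defb1, Mal, Ranbp3l, Kng2, Tmem213, Tfap2b, Tfcp2l1 and Atp1b1. Of the 12 highest, Kcnc2 and Kcnip4, both linked to potassium channels of neurons, had 89.0% and 91.2% of their KO UMIs in 1 cell each. The Wnt pathway gene Lgr5 had 67.9% in 1 cell. Rmst, Aadat, C7, Adgrv1 and Ptprt had between 32.4% and 69.5% of their KO UMIs in 1 cell. The remaining 4 of the 12 were Nav3, the chemokine Cxcl14, the imprinted Notch-like ligand Dlk1 and the microtubule kinase Dclk1, at 3.92, 4.05, 3.96 and 3.62 times the WT level. Of these, Nav3 had 6.89% of its KO UMIs in 1 cell and Cxcl14 had 9.55%, while Dclk1 had 11.5% and Dlk1 26.8%. Without the cells of highest Scrublet doublet score, 20 KO and 14 WT members, the log2 ratios of Rmst, Kcnc2 and Atp1b1 had the other sign, at -2.08, -4.58 and 0.30.

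**Figure D4:**
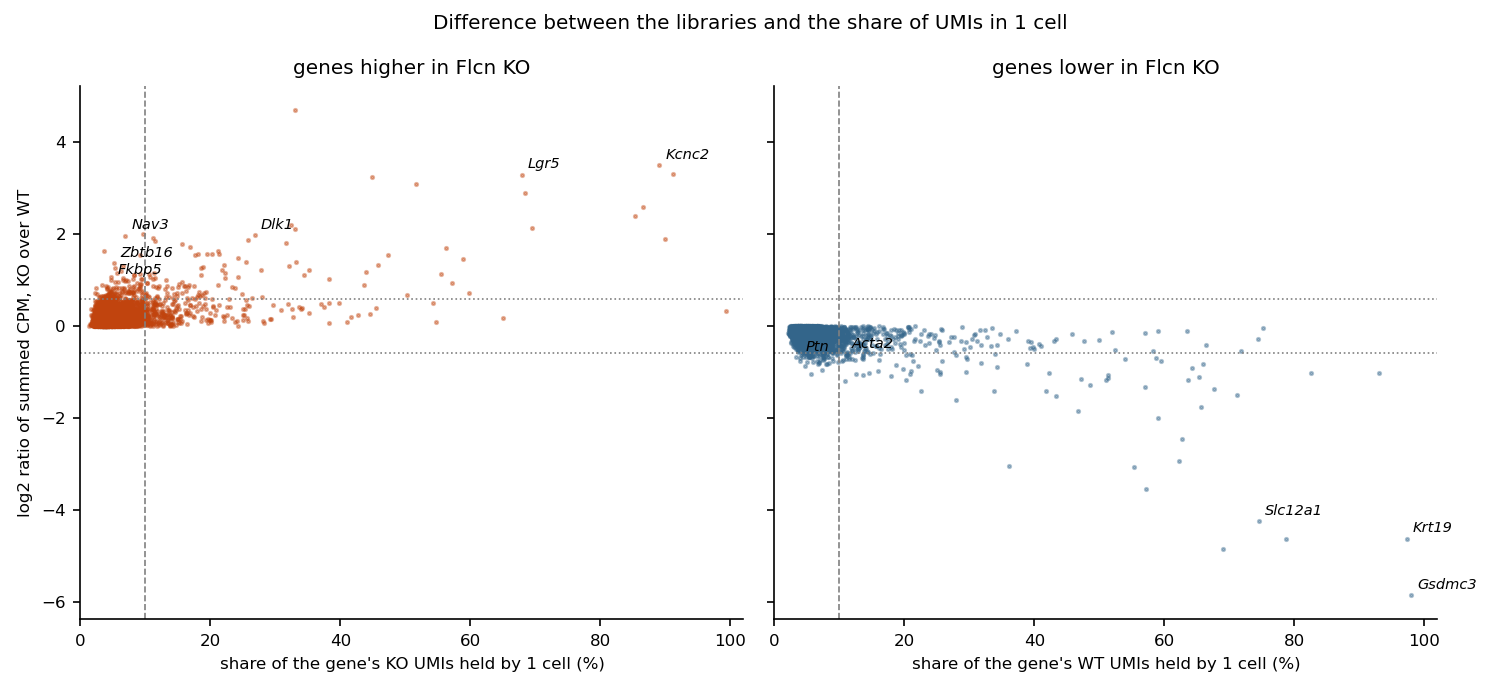
Log2 ratio of summed CPM, KO over WT, for each of the 8135 genes against the share of its UMIs held by a single cell, with genes higher in KO on the left (KO UMIs) and lower in KO on the right (WT UMIs). Dotted lines mark 1.5-fold and the dashed line a share of 10%, and the most extreme ratios, such as those of Kcnc2 and Gsdmc3, lie far right of it.

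A second ranking, added after these values were seen, used the 192 KO and 137 WT members with at most 5 UMIs per 10000 of other types' markers and left out genes with over 10% of UMIs in 1 cell of the library where the gene was higher. The other library had no such limit, so these genes passed through their high group alone. In it, 1 WT cell held 23.5% of the WT UMIs of Acss3, 18.2% of those of Lrriq1 and 17.6% of those of Alx1. For Nav3, Thy1, Zbtb16, Mamdc2 and Sema3d the share in 1 WT cell was 16.9%, 16.7%, 12.7%, 12.1% and 11.5%. Among genes lower in KO, 1 KO cell held 21.95% of the KO UMIs of Agtr1b. For Apbb1ip, Pak7 and Cd83 the share in 1 KO cell was 12.3%, 11.1% and 10.5%. Nav3, a microtubule-guiding protein, stood at 250 CPM in KO and 63.5 CPM in WT, 3.93-fold higher in KO (3.36 to 4.63). Penk, the enkephalin precursor, stood at 178 CPM in KO and 67.7 CPM in WT (2.63-fold, 2.24 to 3.10). The transcription factors Dach1 and Zbtb16 were 2.39-fold (2.19 to 2.6) and 2.19-fold (1.91 to 2.53) higher. The other 8 highest were Mamdc2, Cdk5rap1, Acss3, Lrriq1, Alx1, Thy1, Dock4 and Sema3d, with ratios between 1.96 and 2.94. In stroma, Nav3 was also higher in KO (1.64-fold), as was Cdk5rap1 (2.96-fold), while Penk and Dach1 stood at 0.885 and 0.852 times the WT level. Nav3 stood at 1197 CPM in KO and 728 CPM in WT stroma, and Penk at 854 and 964 CPM. Dach1 stood at 1186 and 1392 CPM in stroma, against 557 and 233 CPM in members. Nav3, Penk and Dach1 were thus each higher in stroma than in members. Whether stromal transcripts shape their ratios in members was not tested. Over all other cells Nav3 was 2.15-fold, Penk 1.76-fold, Alx1 2.19-fold and Thy1 2.53-fold higher in KO, and Dach1 was at 0.82 times. Among members without Pdgfra UMIs the log2 ratios of Penk and Acss3 were -0.14 and -0.50.

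At the other end, the calcium-binding protein S100g stood at 8.53 CPM in KO and 53.8 CPM in WT, 0.16 times the WT level (0.11 to 0.23). Over all members it was at 0.52 times, with 66.7% of the KO UMIs in 1 cell, and among members without Pdgfra UMIs its log2 ratio was 0.48. S100g was also lower outside the members, at 0.18 times the WT level over all other KO cells, so its difference is not particular to mural cells. The growth factor Ptn stood at 863 CPM in KO and 1352 CPM in WT (0.64 times, 0.61 to 0.67). Ptn was at 0.77 times the WT level in stroma (0.73 to 0.81) and at 0.91 times over all other cells. Tropomyosin Tpm2 stood at 334 CPM in KO and 514 CPM in WT (0.65 times, 0.60 to 0.70). In stroma Tpm2 was at 0.66 times (0.62 to 0.71), much as in members, and over all other cells at 1.12 times. The replication factor Pclaf and the mitotic kinesin Kif2c were at 0.58 and 0.49 times the WT level. In stroma they were at 0.76 and 1.52 times, and over all other cells at 0.69 and 1.01 times. Also among the lowest were Cd83, Pak7, Ccdc3, Ifi27l2a, Apbb1ip and the angiotensin receptor Agtr1b, with ratios between 0.46 and 0.57. Their ratios in stroma ran from 0.39 for Agtr1b to 1.32 for Apbb1ip.

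Gene lists were read over their members with at least 10 UMIs. Over all 16360 genes with that many, 11.3% were at least 1.5-fold higher in KO members and 7.13% at least 1.5-fold lower, and the median log2 ratio was 0.01. In the contractile list, 17 of 24 genes were lower in KO members, 1 was at least 1.5-fold higher and 2 at least 1.5-fold lower, and the median log2 ratio was -0.20 (rank interval -0.36 to 0.03). Acta2 had 3676 UMIs in KO and 3805 in WT members, 0.65 times the WT level (0.62 to 0.68). The myosin light chain Myl9 was at 0.65 times (0.60 to 0.70), Tpm1 at 0.75, Tagln at 0.77 and Myh11 at 0.78 times. The kinase Mylk stood at 1.02 times (0.95 to 1.10) and the intermediate filament desmin, Des, at 1.23 times (1.04 to 1.46). Cnn1, calponin, was 4.99-fold higher in KO from 59 UMIs in KO and 8 in WT members, with 39.0% of the KO UMIs in 1 cell.

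Summed, the 19 contractile genes outside the score stood at 1.05, 1.11 and 0.90 times the WT level from the lowest to the highest tertile. Single genes differed more. Acta2, which is in the score, stood at 0.73 (0.58 to 0.92), 0.90 (0.80 to 1.01) and 0.93 times (0.89 to 0.98). Tpm2 stood at 0.84, 1.04 and 0.73 times, and Tpm1 at 0.63, 1.07 and 0.96 times. Des stood at 2.11, 1.57 and 0.82 times. In the stroma of the same libraries Acta2 was lower in KO too, at 519 CPM in KO and 1220 CPM in WT, and in the renin-rich cells it was higher, at 5181 CPM in KO and 3262 CPM in WT.

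Contractile genes are classic targets of serum response factor, which binds the CArG box. Promoter windows of 300 bases (250 before and 50 after the start, RefSeq, GRCm38.p6) were found for 19 of the 24 contractile genes. Of these, 2, Myl9 and Vcl, held an exact CArG match on either strand, with only A or T between CC and GG. Over all 27025 genes with a window, 1.81% held one. Both windows are shown because they carry the motif, given in capitals, in genes that differ in their KO over WT ratio, 0.65 for Myl9 and 0.90 for Vcl (0.84 to 0.97). The motif begins at -161 in Myl9 and at -227 in Vcl, counted from the start. Windows of Acta2 and Tpm2 held no exact match, which says nothing of boxes farther away or of boxes that depart from the pattern. The Acta2 window held ccctatatgg and ccttgtttgg, which each differ from the pattern by a single base.
Myl9 promoter, chr2:156775214-156775513, plus strand: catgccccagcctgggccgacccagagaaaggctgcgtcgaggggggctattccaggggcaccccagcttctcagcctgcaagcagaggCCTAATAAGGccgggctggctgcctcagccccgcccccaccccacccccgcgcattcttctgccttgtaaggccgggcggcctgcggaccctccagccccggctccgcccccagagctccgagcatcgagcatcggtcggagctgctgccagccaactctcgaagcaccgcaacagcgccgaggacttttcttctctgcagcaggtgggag
Vcl promoter, chr14:20929148-20929447, plus strand: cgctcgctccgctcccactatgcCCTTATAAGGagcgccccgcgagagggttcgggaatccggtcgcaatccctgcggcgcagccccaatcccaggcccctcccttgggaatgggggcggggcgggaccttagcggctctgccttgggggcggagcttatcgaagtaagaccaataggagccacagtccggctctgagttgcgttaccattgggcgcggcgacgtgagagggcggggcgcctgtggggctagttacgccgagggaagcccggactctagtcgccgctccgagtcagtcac

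Pericyte genes lay on both sides of the WT level. Of 21 measured, 10 were higher and 11 lower in KO members, 1 at least 1.5-fold higher and 2 at least 1.5-fold lower, with a median log2 ratio of -0.03. Higd1b, a pericyte marker, stood at 54.5 CPM in KO and 33.9 CPM in WT members (1.61-fold, 1.30 to 2.0). The lung and pericyte isoform of a cytochrome oxidase subunit, Cox4i2, was 1.41-fold higher (1.25 to 1.59), Abcc9 1.21-fold and Kcnj8 1.19-fold higher. Postn, a matricellular protein, was at 0.66 times (0.58 to 0.74), and Ebf1, a transcription factor of mural cells, at 0.88 times (0.85 to 0.91). The channel genes differed by tertile. Kcnj8 stood at 1.98 times the WT level in the lowest tertile (1.6 to 2.46), 1.37 in the middle and 0.94 in the highest (0.80 to 1.10), and Abcc9 at 1.68, 1.36 and 0.91 times. Cox4i2 was higher in KO in every tertile, by 1.93, 1.96 and 1.49 times.

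Mesangial genes had a median log2 ratio of -0.27 over 11 measured, 1 at least 1.5-fold higher and 3 at least 1.5-fold lower. Ptn, with 3912 UMIs in KO and 4245 in WT members, was at 0.62 times (0.60 to 0.65), and the transcription factor Gata3 at 0.72 times (0.62 to 0.85). Itga8 was 1.27-fold higher (1.18 to 1.36), and Agtr1a, the main angiotensin receptor, 1.35-fold higher (1.20 to 1.52). In the renin cell list of 15 genes, none was at least 1.5-fold higher and 3 at least 1.5-fold lower. Akr1b7, an aldo-keto reductase made by renin cells, was detected in 24.7% of members in each library, compared with 0.217% in KO and 1.92% in WT endothelium. Its level was 56.2 CPM in KO and 80.4 CPM in WT members (0.70 times, 0.593 to 0.825), and 1 cell held 24.9% of the WT UMIs. The gap-junction gene Gja5 had 23 UMIs in KO and 37 in WT members (0.42 times, 0.24 to 0.73). Among members with a Ren1 UMI, the share with Akr1b7 was 58.3% in KO and 47.1% in WT, compared with 16.4% and 18.5% among members without one.

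Notch signalling was close to level. Of 20 genes measured, 15 were higher and 5 lower in KO, 3 and 1 of them by at least 1.5-fold, with a median log2 ratio of 0.07. The median was -0.0171 without the highest doublet scores, -0.23 in cells thinned to 5000 UMIs and -0.0015 as a mean over cells. The target Hes1 was 1.13-fold higher (1.04 to 1.23), Heyl, a Notch3 target of mural cells, was at 0.81 times (0.73 to 0.91), and the DNA-binding partner Rbpj at 1.01 times. Notch3 itself, fixed in part by the rule, stood at 223 CPM in KO and 258 CPM in WT members. The PDGF list had a median log2 ratio of 0.04 over 10 genes, and none was at least 1.5-fold higher and 1, the ligand Pdgfb, at least 1.5-fold lower from 26 UMIs in KO and 33 in WT. Of 24 TGF-beta and BMP genes, 19 were higher in KO, 3 of them by at least 1.5-fold and none lower by as much. Those 3 of 24 are near the 11.3% of all 16360 genes that were at least 1.5-fold higher. The median log2 ratio was 0.17. These 3 were the inhibitory Smad6 (1.67-fold, 1.39 to 2.01), the endothelial-type receptor Acvrl1 (1.56-fold, 1.18 to 2.09) and the signal carrier Smad3 (1.52-fold, 1.28 to 1.83). The BMP target Id1 was 1.32-fold higher (1.25 to 1.39).

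Receptors and channels that set vessel tone differed gene by gene. Ednrb, the endothelin B receptor, had 169 UMIs in KO and 234 in WT members (0.49 times, 0.40 to 0.60), with 20.9% of the WT UMIs in 1 cell, and Ednra, the endothelin A receptor, was at 0.99 times (0.91 to 1.0804). The guanylate cyclase subunits Gucy1a1 and Gucy1b1 stood at 0.98 and 0.93 times and Prkg1 at 0.84 times (0.81 to 0.86). Of 22 ion channel and calcium handling genes, 16 were higher in KO, 3 by at least 1.5-fold, near the 11.3% of all 16360 genes. The calcium channel Cacna1d was 1.78-fold higher (1.48 to 2.15), and Kcnma1 2.48-fold higher with 32.0% of its KO UMIs in 1 cell. Matrix genes had a median log2 ratio of 0.01 over 30 genes, 2 at least 1.5-fold higher and none lower by as much. The collagen VI chain Col6a2 was 1.55-fold higher (1.36 to 1.77) and Col6a1 1.30-fold higher. The calcification inhibitor Mgp, with 10699 UMIs in KO and 8972 in WT members, was at 0.81 times (0.78 to 0.83), and the elastic fibre gene Fbln5 at 0.71 times (0.64 to 0.79).

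**Figure D5:**
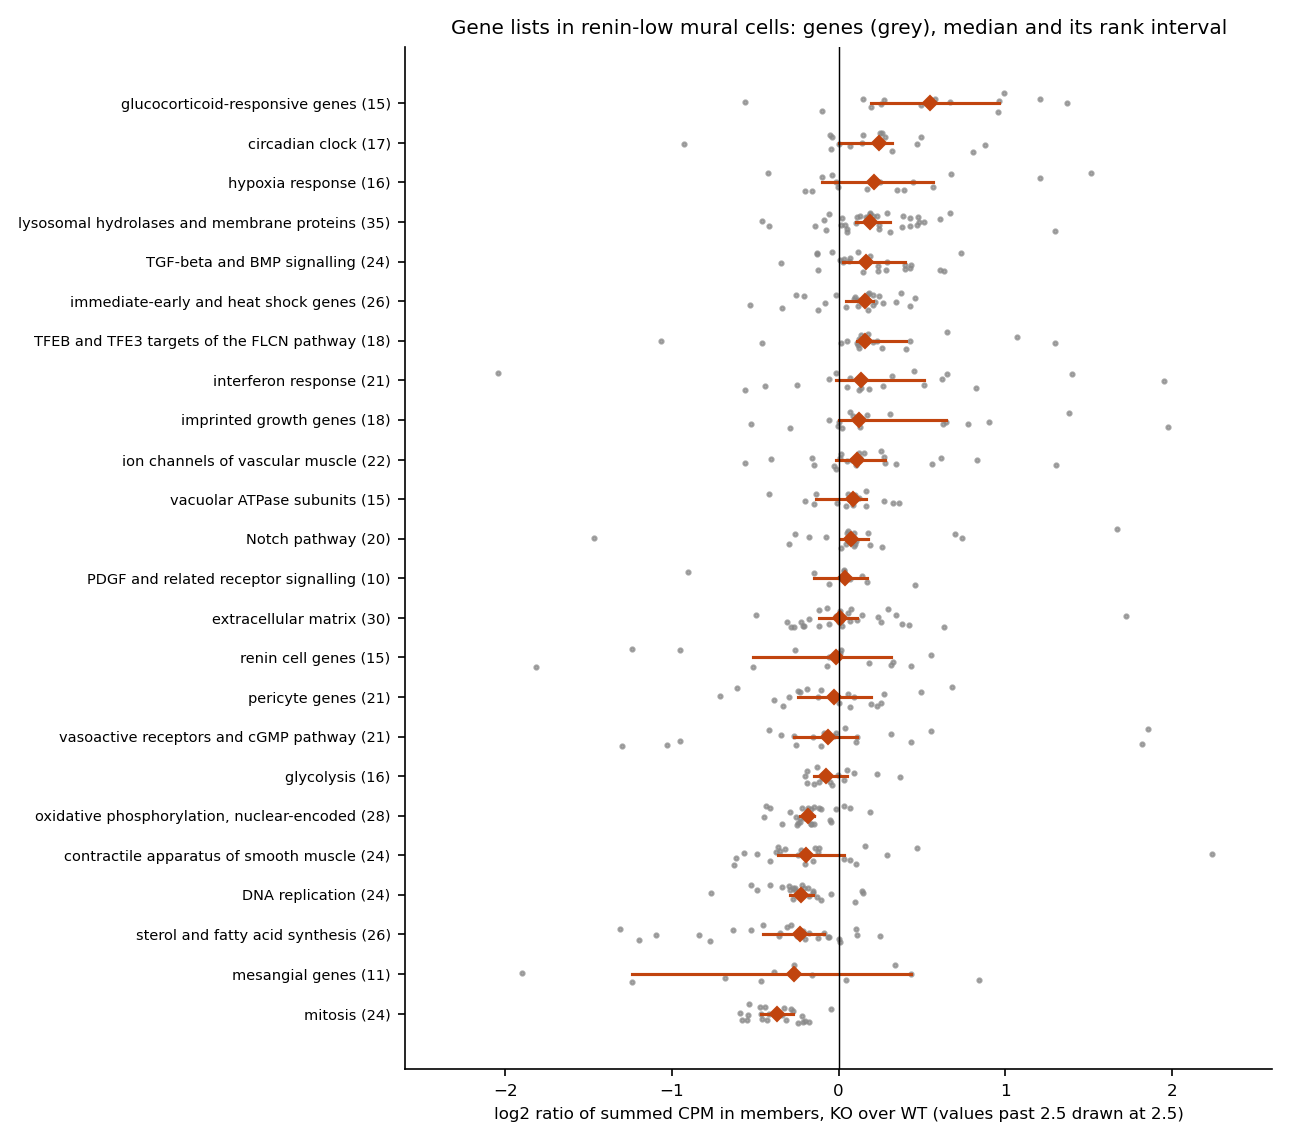
Log2 ratio of summed CPM, KO over WT, in renin-low mural cells for the genes of each list (grey points, number measured in brackets), with the list median (diamond) and the interval of that median from the ranks of its genes. Glucocorticoid-responsive genes have the highest median, 0.55, and mitosis genes the lowest, -0.37.

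Flcn had 43 UMIs in KO and 40 in WT members (0.73 times, 0.46 to 1.15). Captured tags lie near the 3′ end and the deleted part of the gene is not given in the sources used here, so they do not check the deletion. Tfeb had 35 UMIs in KO and 33 in WT members, and Tfe3 103 and 72, both with intervals that held 1. Mitf was at 1.18 times (0.92 to 1.51). Of 18 TFEB and TFE3 targets measured, 16 were higher in KO, 3 by at least 1.5-fold, and 1 was at least 1.5-fold lower, with a median log2 ratio of 0.16 (0.11 to 0.41). In cells thinned to 5000 UMIs that median had the other sign, -0.19. The GTPase Rragd was 2.11-fold higher (1.58 to 2.85) from 197 UMIs in KO and 63 in WT members. Fnip1 was 1.33-fold (1.17 to 1.51) and Fnip2 1.09-fold (0.92 to 1.29) higher, and Fnip1 was 1.41-fold higher over all other cells. Gpnmb, a sensitive TFE3 target, had 4 UMIs in KO and 1 in WT members. Of 35 lysosomal genes, 29 were higher in KO, 3 by at least 1.5-fold and none lower by as much. Those 3 of 35 are below the 11.3% of all 16360 genes that were at least 1.5-fold higher. The lysosomal median log2 ratio was 0.19, against 0.43 over all other cells and 0.09 in stroma. The cathepsin Ctsl was 1.35-fold (1.25 to 1.45) and progranulin, Grn, 1.43-fold (1.20 to 1.71) higher. Without members over 50000 UMIs the lysosomal median was 0.06.

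Genes of cell division were lower in KO members. Of 24 mitosis genes, 24 were lower, 22 with intervals below 1 (8.45% of all 16360 genes), and 1 by at least 1.5-fold, with a median log2 ratio of -0.37 (-0.47 to -0.27). Birc5, survivin, a subunit of the chromosomal passenger complex, was at 0.66 times (0.58 to 0.76), the ubiquitin ligase subunit Ube2c at 0.68 times (0.61 to 0.76), and the proliferation marker Mki67 at 0.88 times (0.81 to 0.96). Of 24 DNA replication genes, 21 were lower, 1 by at least 1.5-fold, with a median of -0.23 (-0.29 to -0.15), and Gins2 was the lowest at 0.59 times (0.47 to 0.74). In stroma the mitosis median was 0.51, higher in KO, and over all other cells it was 0.01. The DNA replication median was -0.12 in stroma and -0.42 over all other cells, so lower replication genes were not particular to mural cells. After every cell was thinned to 5000 UMIs, 38.2% of 241 KO members (32.0% to 44.6%) and 46.2% of 158 WT members (38.2% to 54.3%) had at least 2 mitosis UMIs. In podocytes, which have left the cell cycle, that share was 3.12% in KO and 4.84% in WT at median depths of 25633 and 17277 UMIs. Without thinning it was 70.4% of KO and 78.5% of WT members. The mitosis median had the other sign, 0.16, when the rule was applied to cells thinned to 5000 UMIs, which left 70 KO and 51 WT members.

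Of the metabolic lists, sterol and fatty acid synthesis and the respiratory chain had medians lower in KO members. In the list for synthesis of sterols and fatty acids, 21 of 26 genes were lower in KO, 6 of them by at least 1.5-fold, with a median log2 ratio of -0.23 (-0.45 to -0.09). The sterol enzymes Msmo1 and Idi1 were at 0.44 (0.314 to 0.6) and 0.40 times (0.26 to 0.62). Over all other cells the sterol median was -0.29. Of 28 nuclear-encoded respiratory chain genes, 25 were lower, none by 1.5-fold, with a median of -0.19 (-0.23 to -0.15). The respiratory chain median was 0.015 over all other cells and 0.024 in stroma. Glycolysis genes had a median of -0.07 (-0.15 to 0.05). Vacuolar ATPase subunits had a median of 0.09 (-0.13 to 0.16) over 15 genes, with none past 1.5-fold in either direction.

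Glucocorticoid-responsive genes were higher in KO members, with a median log2 ratio of 0.55 (0.19 to 0.96) over 15 genes, 6 of them at least 1.5-fold higher and none lower by as much. Zbtb16 stood at 199 CPM in KO and 76.7 CPM in WT members (2.59-fold, 2.27 to 2.97). The receptor chaperone Fkbp5 had 661 UMIs in KO and 224 in WT members (1.995-fold, 1.71 to 2.33), and the growth inhibitor Ddit4 was 2.34-fold higher (1.4985 to 3.77). The transcription factor Klf9 was 1.49-fold and the clock gene Per1 1.41-fold higher. The list was not particular to mural cells: its median was 0.89 in stroma and 0.60 over all other cells, and Zbtb16 was 7.82-fold higher in KO stroma. By tertile, the ratio of Zbtb16 was 5.59 in the lowest, 3.02 in the middle and 1.43 in the highest, and that of Fkbp5 was 2.24, 1.72 and 1.86. Hour of collection, handling and stress of the pups were not given, so they and genotype cannot be told apart.

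Further lists were mixed. Immediate-early and heat shock genes, which respond to dissociation, had a median log2 ratio of 0.16 over 26 genes, none past 1.5-fold, and Fos was 1.27-fold higher (1.23 to 1.30). Circadian genes had a median of 0.24 over 17 genes and hypoxia genes 0.21 over 16. In the hypoxia list 3 genes were at least 1.5-fold higher, Ankrd37 (2.92-fold, 1.76 to 5.09), Ddit4 and Bnip3. Interferon genes had a median of 0.14 over 21. Of 18 imprinted growth genes, 6 were at least 1.5-fold higher and none lower by as much. The 3 noncoding RNAs of the Dlk1 and Meg3 locus were higher, Meg3 1.54-fold (1.43 to 1.66), Rian 1.88-fold (1.53 to 2.32) and Mirg 2.66-fold (1.55 to 4.84), and the cell cycle inhibitor Cdkn1c 1.56-fold (1.46 to 1.67). H19 was at 0.69 times (0.63 to 0.76). Over 81 ribosomal protein genes the median log2 ratio was -0.02.

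Renin-low members were set beside the renin-rich cells (42 KO, 35 WT), which were chosen by Ren1 with no minimum of Notch3, Rgs5 or Pdgfrb. Of these, 40 KO and 30 WT cells met every other condition of the rule and were left out through Ren1 alone. Contractile genes were lower in the renin-low members in both libraries. Acta2 stood at 691 CPM in renin-low and 5181 CPM in renin-rich KO cells, and at 1058 and 3262 CPM in WT. Myh11 stood at 71.6 and 1279 CPM in KO and at 92.0 and 695 CPM in WT. Stromal genes were higher in the renin-low members, with Pdgfra at 169 and 8.74 CPM in KO and 153 and 30.3 CPM in WT. Of 8907 genes compared, 703 (7.89%) were at least 2-fold higher and 280 (3.14%) at least 2-fold lower in renin-low members in both libraries. By the less extreme ratio of the 2 libraries, the highest were Mfap4, Dkk1, Ntn1, Cntn4, Kap and Dcn. The small proteoglycan decorin, Dcn, stood at 302 and 7.49 CPM in KO and 350 and 4.78 CPM in WT. The Wnt inhibitor Dkk1 had 170 UMIs in KO and 184 in WT members and 0 in the renin-rich cells of both libraries. The lowest were Tesc, Kcna5, Sh3bgr, Sncg, Akr1b7 and Pcp4l1. The potassium channel Kcna5 was at 0.0711 times the renin-rich level in KO (0.0483 to 0.103) and 0.0615 times in WT (0.0369 to 0.0993). Kcnj8 and Abcc9 were 2.54-fold and 2.71-fold higher in renin-low members in KO, and 0.84 and 0.73 times in WT.

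Against the Pdgfra and Col1a1 stroma (529 KO, 205 WT cells), chosen without Rgs5 and Notch3 UMIs, 424 of 10084 genes (4.2%) were at least 2-fold higher and 140 (1.39%) at least 2-fold lower in members in both libraries. The 6 highest were Rergl, Stac, Abcc8, Itga7, Akr1b7 and Lgi1. Rergl, a small GTPase relative of vascular muscle, had 408 UMIs in KO and 288 in WT members, against 2 in KO and 0 in WT stroma. The calcium channel adaptor Stac had 285 and 240 UMIs in members and 2 and 1 in stroma. Mcam, a mural and endothelial adhesion molecule, was 11.2-fold higher in KO members than in KO stroma (9.09 to 13.8) and 17.6-fold in WT (12.4 to 26.0). Heyl was 15.4-fold and 34.2-fold higher. The 6 lowest were Nalcn, Nrxn3, Sema3e, Bean1, Vwc2 and Col15a1, and Nrxn3, a synaptic adhesion protein, stood at 109 CPM in members and 1295 CPM in stroma in KO, and at 101.8 and 1973 CPM in WT. Acta2 did not separate the sets, at 1.33 times the stroma level in KO and 0.87 times in WT. Whether admixed cells shape these ratios was not tested.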

How the data were processed

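The deposited files are 1 matrix of raw UMI counts per library, whole numbers per gene and barcode, from droplets with 3′ chemistry per the labels. Per the file headers, the authors used Cell Ranger 7.1.0 for the KO library and 7.0.0 for the WT library, so version and genotype cannot be told apart. The submitters' processing notes name bcl2fastq 2.20.0, STAR 2.7.2a and the build GRCm38 (mm10). The treatment of intronic reads is not given in the sources used here. The lowest barcode had 501 UMIs in KO and 500 in WT.

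Barcodes needed at least 1000 UMIs, 500 genes and at most 20% mitochondrial UMIs. UMIs were summed over members, and KO over WT ratios were given exact conditional 95% intervals. For log2 ratios a prior of 0.5 UMI went into both sums. The interval of a list's median comes from ranks of its genes, which are not independent replicates. Rows sharing a symbol were summed. Scrublet in scanpy 1.11.5 called 3 KO and 0 WT barcodes, under the 0.5% taken as usable, so doublets were left in and the highest expected scores (242 KO, 187 WT) were left out only as an alternative. Stroma had at least 2 Col1a1 UMIs and Pdgfra, with no Rgs5 or Notch3.

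Members, lists and tests were chosen with earlier results of these data known. The text names the 12 highest and 12 lowest genes by the interval bound nearest 1, the Flcn pathway and rule genes, and the deepest and most extreme members of each list; list genes named beyond that were chosen after their values were seen. A few genes that these rules name are not reported here. No test across samples was possible with 1 library per group. The interval calculation was tested on simulated sums with counting error alone. These left out the concentration of UMIs in single cells, so the intervals were not tested against it. Python 3.11.15, numpy 2.4.6, scipy 1.17.1, pandas 2.3.3, R 4.3.3, edgeR 4.0.16 (TMM) and DESeq2 1.42.0 (median of ratios) were used, the last 2 for scaling only.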

Additional observations from a re-analysis of the deposited data

How the results depend on the processing

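No paired analysis was possible because each genotype has 1 library, and no replicate could be left out. Alternatives without the deepest member, without members over 50000 UMIs and with 0 UMIs of Pdgfra, and the ranking in cleaner cells, were chosen after seeing the data. The share ratio stayed on its side of 1 in all 10 alternatives. Of the gene log2 ratios, 652 stayed within their interval, 191 moved and 34 reversed. Of the list medians, 379 stayed, 44 moved and 5 reversed. TMM and median of ratios shifted all log2 ratios by -0.0009 and -0.0073. The cause of each change below was not tested, except that thinning and stricter rules leave fewer UMIs.

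Genes at least 1.5-fold higher and lower numbered 460 and 288 under the stricter marker minimum, 6076 and 3918 with a minimum of 1 UMI, and 604 and 590 with 0 UMIs of Pdgfra. The highest contractile tertile held 36.4% of KO members under the stricter minimum, and 40.4% of KO and 60% of WT members with 0 UMIs of Pdgfra. The DNA replication median was -0.37 without the top Scrublet scores, -0.0727 under the stricter minimum, -0.39 as a mean over cells, -0.35 without the deepest member, -0.45 without members over 50000 UMIs and -0.61 with 0 Pdgfra. The mitosis median was -0.47 with at least 1 Acta2 UMI, -0.64 under the stricter minimum, -0.24 as a mean over cells, -0.26 without members over 50000 UMIs, -0.96 with 0 Pdgfra, and reversed to 0.16 in thinned cells. The lysosomal median was 0.32 under the stricter minimum and with 0 Pdgfra, 0.0918 with few other-type UMIs, 0.0753 as a mean over cells, 0.0647 without members over 50000 UMIs and 0.0036 in thinned cells. With 0 Pdgfra the pericyte median was 0.26 and the sterol median -0.59. The Notch median reversed to -0.0171 without the top Scrublet scores, -0.23 in thinned cells and -0.0015 as a mean over cells, and the TFEB and TFE3 target median to -0.19 in thinned cells.

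Single genes reversed as follows, in log2 KO over WT. Without the top Scrublet scores, Rmst was -2.08, Kcnc2 -4.58, Ptprt -0.12, Krt19 0.72, Kng2 0.86, Tfcp2l1 0.54 and Atp1b1 0.30. With at least 1 Acta2 UMI, Kcnc2 was -0.98. With few other-type UMIs, Kcnc2 was -3.68, Kcnip4 -0.0802, Kng2 0.41 and Tfcp2l1 0.54. In thinned cells, Kcnip4 was -2.77, Lgr5 -1.19, Adgrv1 -0.16, Tmem213 0.0326, Tfcp2l1 0.77, Notch3 0.0326, Sema3d -0.45 and Ifi27l2a 0.0326. As a mean over cells, Apoe was -0.0919, Notch3 0.0146 and Ren1 0.63. Without members over 50000 UMIs, Ptprt was -0.29 and Ren1 0.47. With 0 Pdgfra, Kcnip4 was -0.12, Adgrv1 -0.68, Gsdmc3 0.33, Krt19 0.33, Ren1 0.68, Penk -0.14, Acss3 -0.50, S100g 0.48 and Apbb1ip 0.0278.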
